A study of Drosophila melanogaster with 35 samples.

Results

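The ecdysone receptor and its response genes were followed through control and DMAD-depleted BG3C2 cells and through Drosophila melanogaster brains that were wildtype or lacked DMAD by their labels. The 10 genes were chosen by name: EcR and usp, the early genes Eip74EF, Eip75B, br and Eip93F, the nuclear receptor genes Hr46, ftz-f1 and Hr39, and Eip71CD. Each had 1 entry in both expression tables, among 15163 genes in the BG3C2 table and 15061 in the brain table. The authors tested 9 of them in BG3C2 and all 10 in brain.

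Ecdysone is the steroid hormone of insect moulting and metamorphosis, and it acts through a nuclear receptor made of EcR and Ultraspiracle, the product of usp. The hormone-bound receptor switches on a few early genes, most of which encode transcription factors, and these in turn act on later genes. In the fly brain the pathway is known for its part in the remodelling of neurons at metamorphosis and in the timing of neural stem cell programmes. Without hormone the receptor can hold its target genes in a repressed state.

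The series examined DMAD, the fly Tet-family protein encoded by CG43444, in relation to N6-methyladenine in DNA (6mA). BG3C2 is a cultured larval nervous system line that the labels call neuronal, and its control libraries carry the genotype label Wildtype. Knockdown cells received double-stranded RNA matching 580 bp of CG2083, an older name for the same gene, for 144 h in a medium from which serum was first withheld. What control cells received in place of it is not described in the labels. All BG3C2 cells were grown with serum and insulin, and the labels name no ecdysone treatment in any group. Brain libraries are labelled Wildtype or DMAD-knockout, and the labels used here give no age, sex or allele for them. RNA came from 3 control and 3 knockdown BG3C2 libraries and from 2 control and 2 knockout brain libraries, but each deposited table holds only 1 FPKM value (fragments scaled by transcript length and library size) per gene and group. No spread between libraries could therefore be computed, every p and q below is the authors' own Cuffdiff value, and the depth of the libraries is unknown.

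Region lists from chromatin immunoprecipitation in BG3C2 covered DMAD, Polycomb (Pc, a subunit of Polycomb repressive complex 1), Wds (the WDR5 homologue, found in complexes that methylate lysine 4 of histone H3), trimethylated lysine 4 of histone H3 (H3K4me3), acetylated lysine 27 of histone H3 (H3K27ac) and RNA polymerase II (Pol II). The last 3 exist as separate control and knockdown lists. Pc and Wds libraries were made from both control and knockdown cells, and each factor has a single merged list, so their regions may include those of knockdown cells. The control Pol II list is named for BG3C3 cells and the knockdown list for BG3C2; whether this is a slip in the name is not known from the sources used here. Lists of regions with gained 6mA cover both BG3C2 and brain.

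The target of the knockdown fell short of a call. CG43444 stood at 65.9 FPKM in control and 34.9 in knockdown BG3C2 cells in the authors' deposited table, which is 53.1% of control (log2 fold change -0.91, q = 0.706). For brain the authors' deposited table gave 39.8 FPKM for control and 40.4 for the libraries labelled knockout, so the gene-level value did not check that label. Of 6 neuron markers in BG3C2 controls, the authors' deposited table put elav at 12.2 FPKM and the other 5 below 1. All 5 glia markers were above 1, with nrv2 at 101 and moody at 63.0 (authors' deposited table). The glia markers repo (1.81), Eaat1 (2.13) and Gs2 (5.33) lay below elav in the authors' deposited table. Control brain held the neuron marker n-syb at 1027 FPKM and the photoreceptor rhodopsin gene ninaE at 3597 (authors' deposited table). All 5 photoreceptor markers lay below control in knockout brain, and 1 was called by Cuffdiff. This was trpl, at 270 FPKM in control and 124 in knockout in the authors' deposited table (log2 fold change -1.12, q = 0.0103). Summed fat body markers stood at 1725 FPKM in control and 722 in knockout brain libraries in the authors' deposited table, with 2 of 6 called lower. Most of both sums came from Yp1 (624 and 225), Yp2 (383 and 142) and Yp3 (649 and 306) in the authors' deposited table. These 3 are yolk protein genes, the 2 called were Yp1 and Yp2, and the labels give no sex for the brains. All 5 tested markers lay lower, among them Lsp2 (14.8 and 9.12) and Rfabg (52.9 and 37.8) in the authors' deposited table, which were not called. Fbp1, not tested, stood at 1.47 and 2.84 (authors' deposited table). The part of this in the brain results was not tested. Steroidogenic gland markers, which would mark cells able to make ecdysone, summed to 6.60 FPKM in control and 7.99 in knockout brain, with nvd listed at 0 in both (authors' deposited table). In bulk samples fewer cells of a type and less RNA per cell cannot be told apart.

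No gene of the set was called different in either tissue. At q below 0.05 the authors' Cuffdiff test called 0 of 9 members in BG3C2, where it called 22 of 8645 tested genes (0.254%). In brain it called 0 of 10 members, against 63 of 8266 tested genes (0.762%). At an unadjusted p below 0.05 the counts were 0 members in BG3C2, against 2.31% of tested genes, and 1 member in brain, Eip71CD, against 3.51%. With groups of 3 or 2 libraries and no values per library, these counts do not show that the genes behaved alike in the groups compared.

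Most members lay slightly below their control. In BG3C2 8 of the 9 tested members had a log2 fold change below 0, as did 51.6% of all tested genes, and the members' median was -0.18 against -0.01 for all tested genes. In brain 9 of 10 were below 0, against 51.2% of all tested genes, with a median of -0.06 against -0.01. The middle 95% of tested genes ran from -0.73 to 0.94 in BG3C2 and from -0.78 to 1.04 in brain, so every member lay within the span of ordinary genes.

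**Figure D1:**
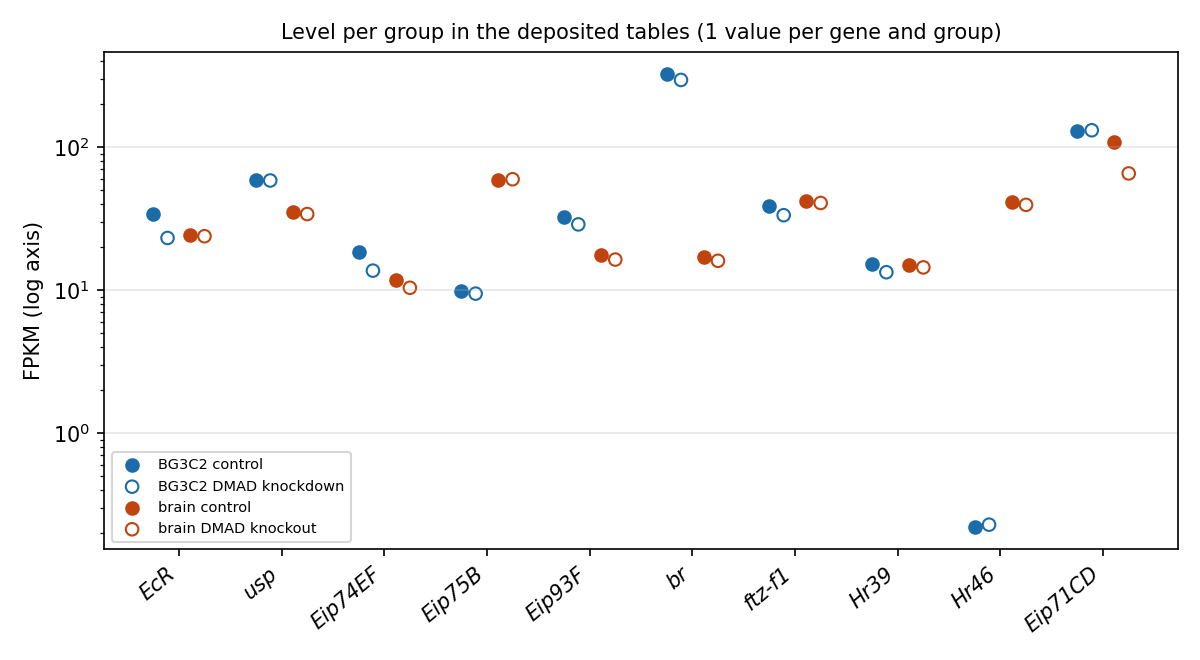
FPKM of the 10 genes in the 4 groups, on a log axis; filled points are controls, open points are DMAD knockdown (BG3C2) or knockout (brain), and each point is the authors' single value per group. Within a tissue the widest gaps are those of EcR (33.9 and 23.2) and Eip74EF (18.5 and 13.7) in BG3C2 and Eip71CD in brain (108 and 65.5). Between the tissues br and Hr46 differ most.

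The levels of the 10 genes spanned a wide range, and the order differed between the cell line and the brain. The BG3C2 controls in the authors' deposited table ran from br at 324 FPKM through Eip71CD (129), usp (59.3), ftz-f1 (38.8), EcR (33.9), Eip93F (32.6), Eip74EF (18.5), Hr39 (15.4) and Eip75B (9.92) to Hr46 at 0.223. In brain controls the order in the authors' deposited table was Eip71CD at 108 FPKM, Eip75B at 59.3, ftz-f1 at 42.0, Hr46 at 41.5, usp at 35.2, EcR at 24.4, Eip93F at 17.7, br at 17.2, Hr39 at 14.9 and Eip74EF at 11.8. With no spread between libraries, neighbours in these orders cannot be told apart. The tables were normalized separately, so levels in one are set beside those in the other without a test. Within its own table br ranked above 98.0% of genes in BG3C2 and above 67.6% in brain, and Hr46 above 38.3% in BG3C2 and 83.6% in brain (authors' deposited tables).

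Both receptor genes were expressed in both tissues. EcR, the hormone-binding subunit, stood at 33.9 FPKM in control and 23.2 in knockdown BG3C2 cells in the authors' deposited table, or 68.3% of control (log2 fold change -0.55, p = 0.0574, q = 1.00). This was the lowest fold change among the members in BG3C2; 4.08% of tested genes had a lower one. In brain EcR stood at 24.4 and 23.8 FPKM (authors' deposited table, log2 fold change -0.04, q = 1.00). Its partner usp, the fly RXR homologue, stood at 59.3 and 58.5 FPKM in control and knockdown cells and at 35.2 and 34.1 in control and knockout brain in the authors' deposited tables (log2 fold changes -0.02 and -0.05, q = 1.00 for both). The deposited locus of usp also covers Actn, an alpha-actinin gene, at 59.2 FPKM in control and 49.3 in knockdown cells in the authors' deposited table. The sources used here do not say whether the counting used strand, so reads of overlapping genes in such loci may not have been kept apart.

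Among the early genes, Eip74EF came nearest to a change. Eip74EF, an ETS-domain transcription factor gene, stood at 18.5 FPKM in control and 13.7 in knockdown cells in the authors' deposited table (log2 fold change -0.43, p = 0.107, q = 1.00), and 5.96% of tested genes had a lower fold change. Its brain values in the authors' deposited table were 11.8 and 10.4 FPKM (-0.18, q = 1.00). Eip75B, which encodes a haem-binding nuclear receptor, stood at 9.92 and 9.47 FPKM in BG3C2 and at 59.3 and 59.7 in brain in the authors' deposited tables (log2 fold changes -0.07 and 0.01). It was the only member above its control in brain, by an amount that no test distinguished from 0 (q = 1.00).

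The other early genes moved little. The level of br, the BTB zinc-finger gene whose product marks the switch to pupal development, was 324 FPKM in control and 295 in knockdown cells, and 17.2 and 16.1 in control and knockout brain, in the authors' deposited tables (log2 fold changes -0.14 and -0.10). Eip93F, a helix-turn-helix factor gene of the later metamorphic programme, stood at 32.6 and 28.8 FPKM in BG3C2 and 17.7 and 16.4 in brain in the authors' deposited tables (-0.18 and -0.11). All 4 tests gave q = 1.00.

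Of the nuclear receptor genes that act after the early genes, Hr46 separated the tissues. Hr46 encodes DHR3, the fly homologue of the ROR receptors, which induces ftz-f1 in prepupae. In the authors' deposited table it was at 0.223 FPKM in control and 0.230 in knockdown BG3C2 cells, too low for the authors to test. In brain it stood at 41.5 and 39.5 FPKM (authors' deposited table, log2 fold change -0.07, q = 1.00). CG12912, which shares the Hr46 locus, had the same split, at 0 FPKM in control BG3C2 cells and 34.4 in control brain in the authors' deposited tables.

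The competence factor gene ftz-f1 stood at 38.8 and 33.5 FPKM in BG3C2 and at 42.0 and 40.7 in brain in the authors' deposited tables (log2 fold changes -0.22 and -0.05). Hr39, its closest relative among fly nuclear receptor genes, stood at 15.4 and 13.4 FPKM in BG3C2 and at 14.9 and 14.4 in brain in the authors' deposited tables (-0.20 and -0.05). Neither passed the test in either tissue (q = 1.00 in each). Hr46, which lies upstream of ftz-f1 in prepupae, was thus near 0 in cells where ftz-f1 was not.

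Eip71CD showed the lowest p of the set. This gene encodes methionine sulfoxide reductase A, an enzyme that repairs oxidized methionine, and is the only member that is not a receptor or transcription factor gene. In brain it stood at 108 FPKM in control and 65.5 in knockout libraries in the authors' deposited table, or 60.7% of control (log2 fold change -0.72, p = 0.00695, q = 0.475). A lower p was given to 120 of the tested brain genes, and 2.95% of them had a lower fold change. The 2 called fat body markers, the yolk protein genes Yp1 and Yp2, fell as well. Yp1 went to 225 FPKM from 624 by the authors' deposited table, and the part of this in the Eip71CD value was not tested. In BG3C2, where every fat body marker was below 1 FPKM, Eip71CD stood at 129 and 131 (authors' deposited table, log2 fold change 0.03, q = 1.00).

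**Figure D2:**
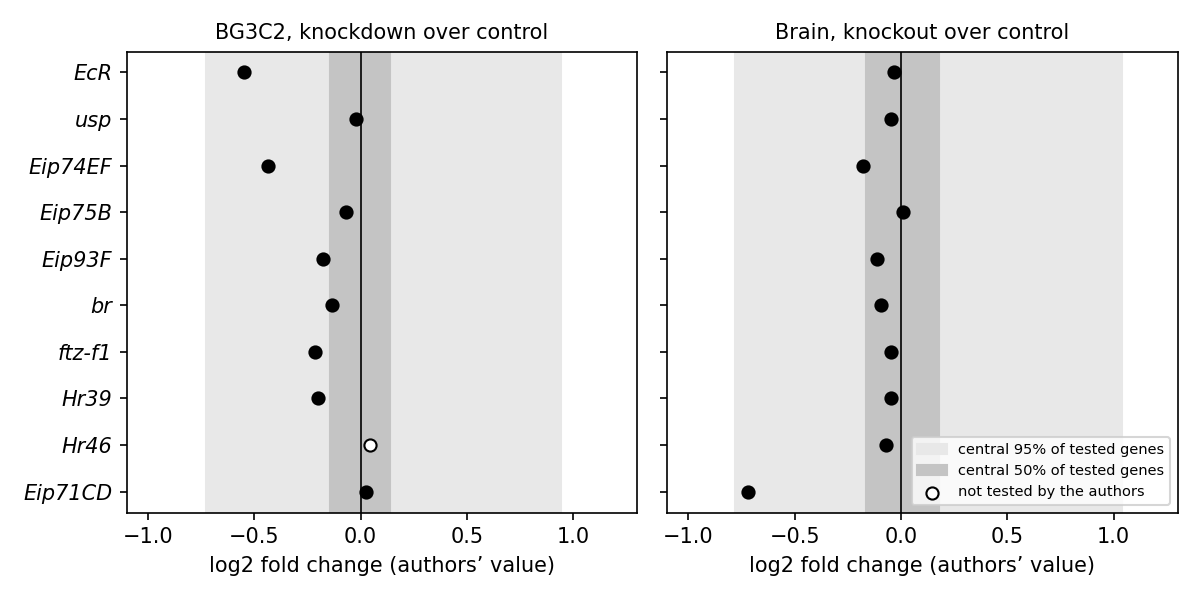
Authors' log2 fold change of each gene over its control, in BG3C2 (left) and brain (right); the dark band holds the middle 50% and the pale band the middle 95% of tested genes, and the open point was not tested. In BG3C2 EcR (-0.55) and Eip74EF (-0.43) lie farthest left, and in brain Eip71CD (-0.72) does, all inside the pale bands.

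Around these members, 86 other genes of the pathway were listed in 5 groups. In BG3C2 49 of them were tested and 0 were called by Cuffdiff, 4 had p below 0.05, and 15 lay above and 34 below their control (median log2 fold change -0.10). In brain 57 were tested, 1 was called and 5 had p below 0.05; 33 lay above and 24 below (median 0.02). Of 15 receptor cofactors and chromatin partners, 14 lay below control in BG3C2 (median -0.18) and 10 did in brain (median -0.04). Of the downstream targets, 8 of 11 tested in BG3C2 lay above control (median 0.10) and 12 of 17 in brain (median 0.12).

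The single called gene was Hr38, the fly NR4A receptor gene, whose product can also pair with Ultraspiracle and which is a known neuronal activity gene. It rose in knockout brain, where the authors' deposited table gave 9.52 FPKM for control and 21.1 for knockout (log2 fold change 1.15, q = 0.0103). In BG3C2 it was at 0.258 and 0.165 FPKM in the authors' deposited table and was not tested.

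Other pathway genes with the lowest unadjusted p did not pass the adjusted threshold. In BG3C2 these were Bin1, a Sin3-complex subunit gene, at 196 and 420 FPKM in the authors' deposited table (log2 fold change 1.10, q = 0.0800), and the cell death gene rpr at 17.8 and 37.6 (1.08, q = 0.540). The death gene W (hid) stood at 20.2 and 13.0 FPKM and shd, which encodes the enzyme that converts ecdysone to its active form, at 12.5 and 7.33 in the authors' deposited table (-0.63 and -0.77, q = 1.00 for both). The death genes rpr and hid thus lay on opposite sides of their controls.

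In brain ImpL1 stood at 1.06 and 7.03 FPKM (log2 fold change 2.73, q = 0.705), ImpE1 at 5.14 and 8.43 (0.71, q = 0.897) and Fbp2 at 1.27 and 6.59 (2.38, q = 1.00) in the authors' deposited table. Hsp83, the Hsp90 gene whose product helps the receptor to bind DNA, stood at 2530 and 993 FPKM in the authors' deposited table (-1.35, q = 1.00). Both ImpL1 and Fbp2 stood near 1 FPKM in control.

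Region lists were then read over the loci of the members, in dm3 coordinates. The loci are EcR at chr2R:1975377-2056592, usp at chrX:1918788-1936344, Eip74EF at chr3L:17551771-17612425, Eip75B at chr3L:17944052-18057796, Eip93F at chr3R:17774835-17840261, br at chrX:1417586-1558902, ftz-f1 at chr3L:18743706-18794409, Hr39 at chr2L:21237249-21259675, Hr46 at chr2R:6091616-6124853 and Eip71CD at chr3L:15504151-15506302. Eip71CD covers 2.15 kb, usp 17.6 kb and br, the longest, 141 kb. Long loci hold more regions, so the members were set beside the 1174 distinct loci in the table that are as long as usp or longer, called long loci here; 9 of the 10 members belong to them.

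Pooled over the 9 members with long loci, DMAD, Pc and Wds regions were denser than over all long loci. A DMAD region overlapped 9 of 10 members and 57.2% of long loci, a Pc region 8 members and 58.6%, and a Wds region 9 members and 44.2%. Over the 743 long loci with a gene of at least 1 FPKM in BG3C2 controls, the shares were 68.6%, 61.4% and 61.4%. The 9 long members held 8.19 DMAD regions per 100 kb against 2.14 over all long loci, 6.31 Pc regions against 2.85, and 6.14 Wds regions against 1.24. By length, DMAD regions covered 19.3% of the 9 loci and 4.60% of all long loci, Pc 10.3% and 4.58%, and Wds 11.5% and 1.78%. Without br the covered shares of the other 8 long members were 17.8% for DMAD, 8.93% for Pc and 9.55% for Wds.

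Coverage and density varied among the members. Ranked by density among long loci, the 9 long members ran from 92.2% (Hr46) down to 63.7% (Hr39) for DMAD. For Pc they ran from 92.8% (usp) through 54.2% (Eip93F) and 53.7% (Hr46) to 0 (Hr39). For Wds they ran from 97.0% (Eip74EF) to 69.5% (Hr46). DMAD regions covered 51.3% of usp, 28.6% of Eip74EF, 23.9% of br and 22.0% of EcR, but 5.65% of Hr39. The largest number was at br, with 11 DMAD, 11 Pc and 9 Wds regions, followed by Eip75B with 9 DMAD regions and Eip74EF with 7 of each factor. Hr39 held 1 DMAD region, 2 Wds regions and 0 Pc regions. Eip71CD, the short enzyme gene, held none of the 3 factors. Of all loci at least as long as Eip71CD, 50.3% held a DMAD region, 48.6% a Pc region and 39.1% a Wds region.

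The factors often lay on the same places. Of 48 DMAD regions at the members, 26 overlapped a Pc region (54.2%), which was close to the share over long loci (55.2%). Overlap with Wds was found for 27 of the 48 (56.3%), against 37.9% over long loci. Seen from the other side, 31 of 37 Pc regions at members overlapped DMAD (83.8%), against 43.3% of Pc regions in long loci. DMAD regions also covered more of the long members than of all long loci (19.3% against 4.60%). The part of that in the Pc share was not tested.

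**Figure D3:**
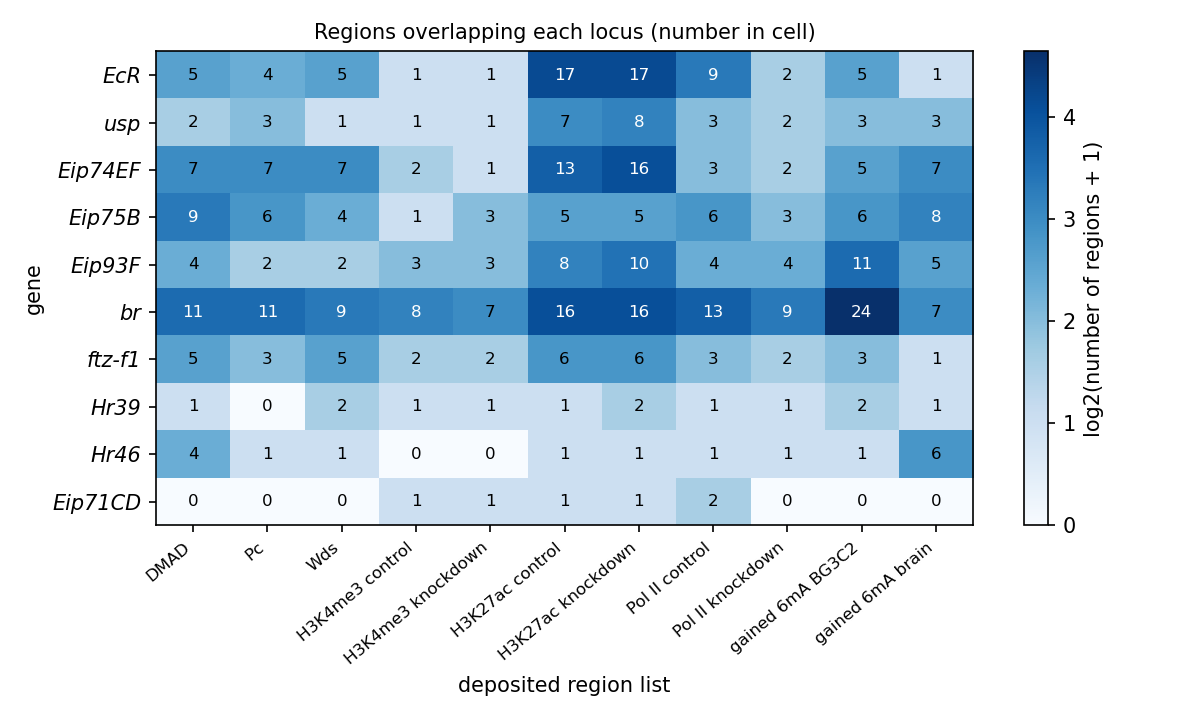
Number of deposited regions that overlap each locus, by list; colour is log2(number + 1). The row of br is darkest, with 24 windows of gained 6mA in BG3C2, Hr46 has 0 H3K4me3 regions, and Eip71CD has 0 regions in the DMAD, Pc, Wds and gained 6mA lists.

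Histone marks of active genes were found at nearly all members. H3K4me3, a mark of active promoters, overlapped 9 of 10 members in the control list and 9 in the knockdown list (50.4% and 51.7% of long loci), with 20 regions in each. H3K27ac, a mark of active promoters and enhancers, overlapped all 10 in both lists (62.5% and 62.7% of long loci), with 75 regions in the control and 82 in the knockdown list. All members but Hr46 stood above 1 FPKM in BG3C2 controls. Over the 743 long loci with a gene of at least 1 FPKM there, the control-list shares were nearer, at 72.0% for H3K4me3 and 88.0% for H3K27ac. EcR held the most H3K27ac regions, 17 in each list, and br held 16 in each.

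The missing mark was H3K4me3 at Hr46, the gene that was near 0 FPKM in these cells. Hr46 still held 4 DMAD regions, 1 Pc region, 1 Wds region and 1 H3K27ac region. Among the 431 long loci with every gene below 1 FPKM in BG3C2 controls, 37.4% held a DMAD region, 53.8% a Pc region, 14.6% a Wds region, 18.6% an H3K27ac region and 13.2% an H3K4me3 region. The corresponding shares over the other 743 long loci were 68.6%, 61.4%, 61.4%, 88.0% and 72.0%. The Wds region of Hr46 at chr2R:6097659-6099267 overlapped a DMAD region at chr2R:6097458-6099355 and its only H3K27ac region, chr2R:6096322-6098923 in the control list.

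By the authors' peak score, the H3K4me3 peaks of the members ranked from high to low within the control list. A peak of usp (chrX:1933148-1936513) and 2 peaks of br (chrX:1505105-1509753 and chrX:1558821-1565779) shared the top score of the list, which ranks at 79.5% with ties counted at their middle. The second br peak starts just inside the right end of the locus, chrX:1558902, and nearly all of it lies beyond that end. It lies off the Wds regions and holds no gained 6mA window. A DMAD region (chrX:1558527-1568969), a Pc region (chrX:1558774-1566077) and a control H3K27ac region (chrX:1558895-1563311) there also lie mostly outside, though all are counted for br. Those of Eip71CD (chr3L:15504968-15506213), Eip74EF (chr3L:17567699-17570138) and Hr39 (chr2L:21236878-21238331) ranked at 55.7%, 55.3% and 44.1%. ftz-f1 (chr3L:18793031-18794739) and Eip93F (chr3R:17798531-17799297) ranked at 21.0% and 18.0%. The lowest were Eip75B (chr3L:17962619-17964081) at 9.54% and EcR (chr2R:2018398-2019211) at 9.44%. The single H3K4me3 peak of EcR lay 43.0 kb inside the left end of its locus, on a DMAD and a Wds region and off the Pc regions.

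Control peaks of both histone marks were mostly found again in knockdown cells. Of 20 control H3K4me3 peaks at members, 17 overlapped a knockdown peak (85.0%), against 89.9% of such peaks in long loci. For H3K27ac this held for 70 of 75 (93.3%), against 89.8%. Of the 3 unmatched H3K4me3 peaks, 1 was the only control peak of Eip75B, 1 lay at Eip74EF and 1 at br. In the knockdown list Eip75B held 3 other peaks, the best of them at chr3L:18054157-18054822. With 1 library per condition in the H3K4me3 labels and no sample record used here for H3K27ac, a peak missing from a list has no replicate check.

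The Pol II knockdown list stood apart from the other lists before any member was considered. Of its 7410 peaks, 24.6% overlapped a control H3K4me3 peak, against 55.2% of the 6776 peaks in the control list. It held a peak in 67.1% of the long loci with every gene below 1 FPKM and in 68.9% of the others, where the control list held one in 35.0% and 82.2%. On chromosome X it had 236 peaks against 733 in the control list. Results for Pol II therefore rest on a list whose makeup differed, and the part of that in the counts below was not tested.

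Pol II peaks overlapped 10 of 10 members in the control list (64.9% of long loci) and 9 of 10 in the knockdown list (68.2%), with 45 and 26 peaks. Of the 45 control peaks, 20 overlapped a knockdown peak (44.4%), against 50.2% in long loci. The members split by chromosome in the direction opposite to the whole list. On X, where br and usp lie, 12 of 16 control peaks were matched (75.0%), against 24.9% in X-linked long loci. On the autosomes 8 of 29 were matched (27.6%), against 53.4%.

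EcR held 9 control Pol II peaks, and 2 of them were matched in the knockdown list. Of the 116 autosomal long loci with 5 or more control peaks, 12.9% had as low a matched share as EcR (22.2%) or a lower one, and the median was 55.6%. The peak of EcR that lay over its H3K4me3 peak, chr2R:2018364-2019973, was among those not matched, although H3K4me3 itself was matched there. At br 10 of 13 peaks were matched. The longest of the 3 unmatched ones, chrX:1504850-1522169, spanned 6 of the 8 control H3K4me3 peaks of br, and 5 of those 6 were matched in the knockdown list. Eip75B had 2 of 6 and Eip93F 1 of 4 Pol II peaks matched, and Eip71CD 0 of 2.

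Regions with gained 6mA after DMAD depletion were also found at most members. The BG3C2 list, made of windows of 1 kb, overlapped 9 of 10 members and 75.7% of long loci, with 60 windows. The brain list overlapped 9 members and 74.1% of long loci, with 39 regions. Per 100 kb the 9 long members held 10.2 BG3C2 windows against 4.32 over long loci, and 6.65 brain regions against 3.60. Eip71CD held none in either list, and of all loci at least as long, 26.8% held a BG3C2 window and 26.0% a brain region. The lists give positions only, with no level of 6mA and no regions of loss, and the sources used here do not say how gain was called.

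By number, the BG3C2 windows were most frequent at br and Eip93F. The br locus held 24, more than 99.7% of long loci, or 17.0 per 100 kb, and Eip93F held 11, or 16.8 per 100 kb. Over usp there were 3 windows in a short locus, 17.1 per 100 kb. The other long members had between 3.01 (Hr46) and 8.92 (Hr39) per 100 kb. In brain the highest counts were 8 regions at Eip75B and 7 each at Eip74EF and br. By density the brain order ran from Hr46, with 6 regions or 18.1 per 100 kb, through usp with 17.1 and Eip74EF with 11.5, while br had 4.95. Hr46 therefore had 1 window in the cells where it was near 0 FPKM and 6 regions in the brain, where it stood at 41.5 in the authors' deposited table; these are 2 lists made separately, and the difference was not tested.

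Many of the gained windows of the members lay on factor regions. Of the 60 BG3C2 windows, 25 overlapped a DMAD region (41.7%, against 12.6% of gained windows in long loci), 16 a Pc region (26.7%, against 11.5%) and 21 a Wds region (35.0%, against 9.87%). The loci of the members carry more of these regions, so the windows that were not listed as gained matter for this count. Of all 598 windows of 1 kb over the members, 26.1% overlapped a DMAD region, against 6.59% of the 78461 over long loci.

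Windows on a DMAD region were listed as gained in 16.0% of cases at the members and windows off DMAD in 7.92%. Over long loci the shares were 8.14% and 3.99%. For Pc the shares at members were 17.0% on and 8.73% off, against 7.07% and 4.05% in long loci. For Wds they were 20.0% on and 7.91% off, against 14.1% and 3.96%. On H3K27ac regions of the control list, 16.2% of member windows were listed, and 7.40% off them. Both on and off factor regions the members' shares were thus above those of long loci. Without br the shares at the other members were 13.2% on DMAD and 6.14% off it, 10.9% and 7.40% for Pc, and 15.3% and 6.51% for Wds.

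**Figure D4:**
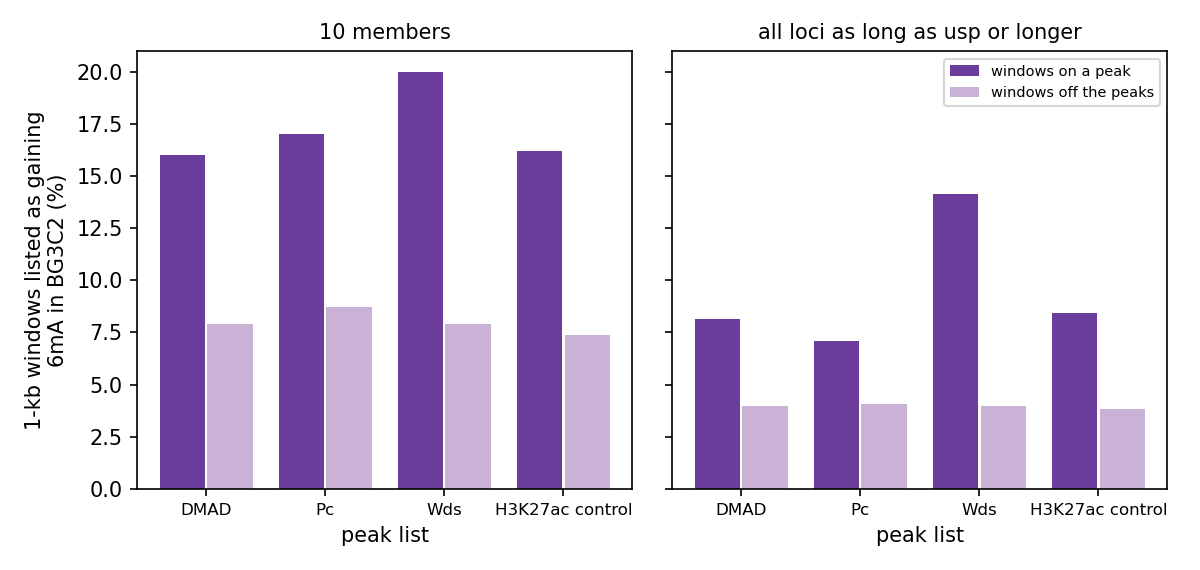
Share of 1-kb windows listed as gaining 6mA in BG3C2, for windows on (dark bars) and off (pale bars) the peaks of each list, at the 10 members (left) and in all loci as long as usp or longer (right). Dark bars exceed pale bars in all 8 pairs, for example 16.0% against 7.92% for DMAD at the members, and the bars of the members exceed those of long loci.

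At EcR the 5 gained windows formed 2 runs. The first, chr2R:2020001-2023000, lay on a DMAD region and H3K27ac and in part on a Wds region, just to the right of the H3K4me3 peak of the gene, and the second, chr2R:2028001-2030000, lay off the 3 factors and, like the first, on H3K27ac. At br the windows were read in 2 parts, split just left of the first DMAD region, which starts 84.1 kb into the locus. From the left end to 83.4 kb into the locus, 11 windows lay off all DMAD, Pc, Wds and control H3K27ac regions; 1 of them, chrX:1471001-1472000, touched an H3K27ac region of the knockdown list. From there to the right end, 10 of 13 lay on DMAD, among them the windows at chrX:1505001-1507000, over one of its top-scoring H3K4me3 peaks, and those at chrX:1517001-1519000, chrX:1541001-1542000 and chrX:1543001-1544000. With no DMAD region in the left part, its windows could not lie on DMAD. The share of all windows on DMAD in the right part is not given here, so the 10 of 13 has no background beside it.

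**Figure D5:**
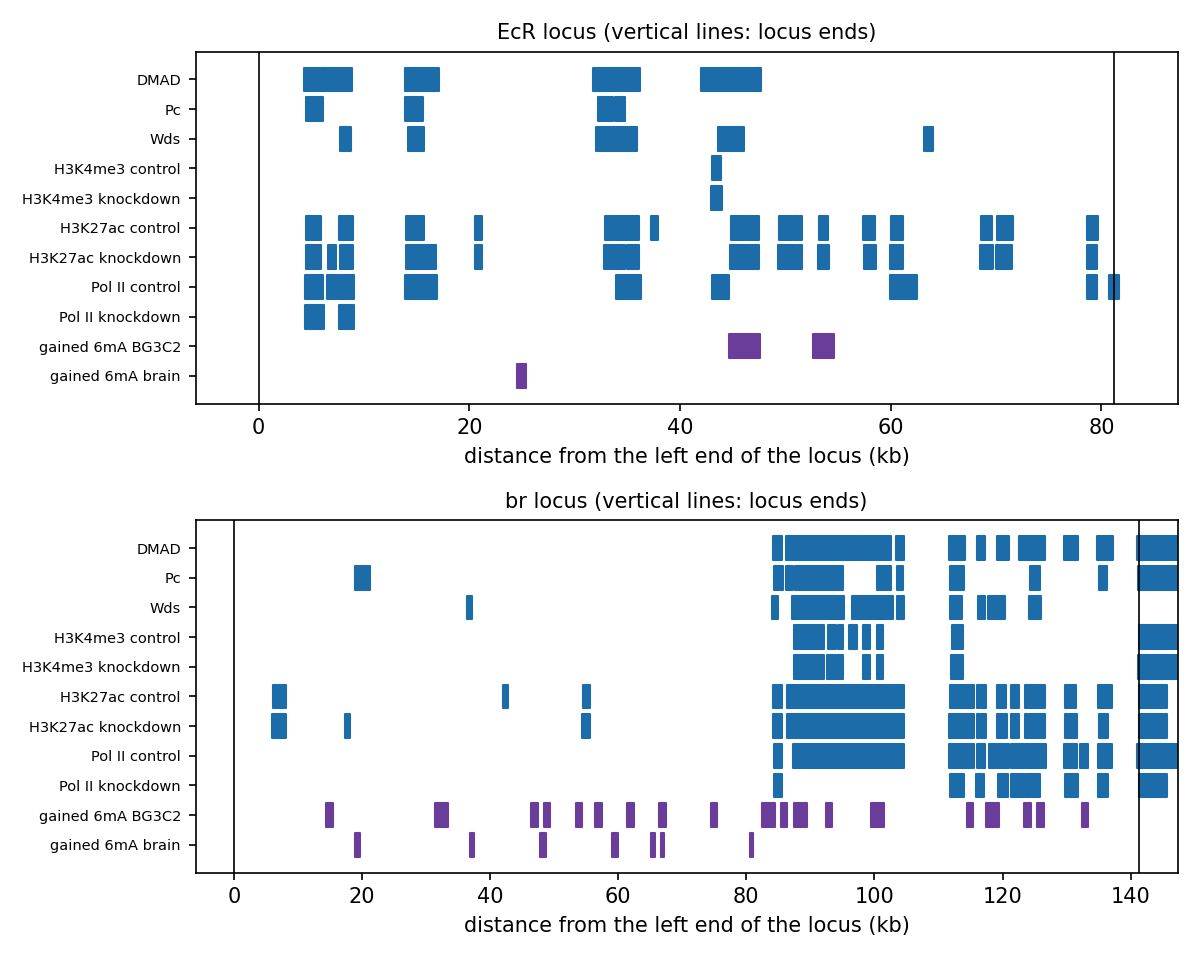
Deposited regions along the EcR (top) and br (bottom) loci, in kb from the left end of each locus; each line is a list, blue bars are peaks and purple bars are regions with gained 6mA. Most peaks of br lie in the right part of the locus, from about 84 kb on, while gained 6mA windows lie on both sides of that point.

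Other members carried gained windows on the factors as well. Windows that overlapped DMAD and Wds together were found at Hr39 (chr2L:21238001-21239000), Hr46 (chr2R:6098001-6099000) and ftz-f1 (chr3L:18764001-18765000 and chr3L:18793001-18794000). All 3 factors met a gained window at Eip75B (chr3L:17999001-18000000), Eip93F (chr3R:17775001-17776000) and usp (chrX:1934001-1935000). Eip74EF, with 7 DMAD regions over 28.6% of its length, had 5 gained windows, 0 of them on DMAD.

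Few gained windows were shared between the tissues, at the members as in long loci. Of the 60 BG3C2 windows, 6 overlapped a brain region (10.0%), against 15.3% in long loci. They were chr3L:17585001-17586000 at Eip74EF, chr2L:21250001-21251000 at Hr39, chr2R:6098001-6099000 at Hr46, chrX:1930001-1931000 at usp, and chrX:1466001-1467000 and chrX:1484001-1485000 at br. The Hr46 window was the only one of the 6 on a DMAD region. Seen from the brain list, 6 of 39 regions overlapped a BG3C2 window (15.4%), against 17.5% in long loci. Of the 39 brain regions, 7 overlapped a DMAD region mapped in BG3C2 (17.9%), against 6.90% in long loci; no DMAD list for brain was used here. Counted over windows of 1 kb, brain gain was listed in 8.33% of member windows on DMAD and in 11.1% of those off it, against 7.02% and 5.15% in long loci. These differences were not tested.

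Counts of regions and changes of RNA can be set side by side for single genes. The loci br and Eip93F, with the most gained windows in BG3C2, had log2 fold changes of -0.14 and -0.18 in the authors' deposited table. EcR, with the lowest fold change (-0.55), had 5 windows. Eip71CD, the member with the lowest p in brain, had no DMAD, Pc or Wds region in BG3C2 and no gained region in either list. Its locus is 2.15 kb long, and most loci of at least that length held no gained region (26.8% did in BG3C2 and 26.0% in brain). With 10 genes and 1 value per gene, no relation between the 2 measures was tested.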

How the data were processed

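Expression values are the authors' deposited Cuffdiff tables, 1 FPKM per gene and group, with the log2 fold change of perturbed over control, p-value and q-value as deposited, per the file headers; no test over samples was possible. The tools named in the submitters' processing notes are MACS 1.4.2, TopHat2 2.0.8, bedtools, Cuffdiff 2.2.1, CASAVA 1.4 and Bowtie 0.12.9, and the builds are dm3 and mm9, with no roles or settings. Region lists hold positions; the H3K4me3, H3K27ac and Pol II lists also hold the authors' score per deposited peak (lowest 50.0), which ranked peaks within a list only. The number of per-sample columns set aside was 0.

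Members were matched by symbol, and loci, which carry no strand, came from the tables; whether their starts count from 0 or 1 is not stated. Gained BG3C2 windows, which start at positions ending in 001, were read as counting from 1 and other lists from 0. Overlap meant at least 1 bp. Long loci were the distinct loci of at least 17556 bp. Calls were the authors' at q below 0.05. The overlap code was tested on simulated regions. Python 3.11.15, pandas 2.3.3, numpy 2.4.6, SciPy 1.17.1 and matplotlib 3.10.9 were used.

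The members and the pathway and marker lists were chosen with earlier results of these data known. All 10 members are named; other pathway genes are named if called, or if among the 5 with the lowest p below 0.05 in a table; marker and neighbouring genes, and regions beyond the best H3K4me3 peaks and gained windows on factors, were chosen after their values were seen. Of the listed symbols, 5 had no match. The p-values may measure technical spread only, since the labels do not say that libraries came from separate cultures or flies. The MNase and H3K27me3 libraries were not used here. No sequence is printed, and the promoter motifs planned were not searched, as no genome was used here.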

Additional observations from a re-analysis of the deposited data

How the results depend on the processing

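Of 90 alternative values for results over the members, 81 stayed within a set margin of the reported value and 9 did not; the margin was 1.5 times for a count, 0.1 for a log2 median and the 95% Wilson interval for a share. The wider of the former were Pol II in the upper 50% of peaks, which overlapped 6 members in the knockdown list and 8 in the control list. All 57 for single genes were log2 fold changes with a pseudocount or centred on the median, and these moved by less than 0.1 with no threshold tested anew. The alternatives were a stricter q, unadjusted p, log2 ratios with pseudocounts, an FPKM minimum, centring on the median, other distances and overlaps, the upper 50% of scored peaks and, chosen after seeing the data, autosomes alone, no br and a larger overlap. Some alternatives could not move a value, so the 81 are not all checks. Loci taken from the other expression table were identical, a stricter q cannot raise a count of 0, and the FPKM minimum removed no tested member. An unadjusted p gave 1 brain member, Eip71CD, against 0. Pc regions within 500 bp of a locus end were found at 3 members, against 5 within 1 kb, where 35.0% of long loci had one. Brain gained 6mA within 2 kb of an end was found at 4 members, against 2 within 1 kb, where 22.9% of long loci had it. In the upper 50% of peaks H3K4me3 overlapped 4 members in each list, against 9 with all peaks. The matched shares of control peaks in the upper 50% were 100.0% for H3K4me3 and 100.0% for H3K27ac. Shares over other loci are not given for these alternative settings. The matched share for Pol II on autosomes was 27.6%, and gained windows at least 50% covered by Pc were 11.7%. The cause was not tested. No paired analysis was possible because the tables hold 1 value per group, and for the same reason no replicate could be left out. Depth is unknown throughout.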
